A study of Mus musculus with 15 samples.

Results

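The Wnt module examined here comprised 42 mouse genes: 16 ligands of the Wnt family, 12 receptors and co-receptors (Fzd1 to Fzd10, Lrp5 and Lrp6), 9 secreted modulators (Sfrp1, Sfrp2, Sfrp4, Sfrp5, Frzb, Dkk1, Dkk2, Dkk3 and Rspo3) and 5 genes that act in the nucleus or are switched on by the pathway (Axin2, Lef1, Tcf7, Sp5 and Nkd1). Members were all non-control array probes that carry one of these gene names, which gave 51 probes. A gene was kept where the scanner software scored it well above background on at least 3 arrays of a group, and 40 of the 42 genes, with 48 probes, passed. They were measured in embryonic stem (ES) cells of the mouse and in embryoid bodies, the aggregates in which such cells differentiate, which the labels name EB9. Each stage was compared between control cells, whose treatment the labels give as none and whose ES cells the series' design text calls ES-shCtr, and cells given the hairpin numbered 33 against Cbx7, called knockdown here after their labels. The groups were control ES cells (3 arrays, replicates 2, 3 and 4), Cbx7 knockdown ES cells (4 arrays), control EB9 (4 arrays) and Cbx7 knockdown EB9 (4 arrays), labelled as biological replicates. With 1 hairpin, no variation between hairpins enters any comparison. The p-values rest on the scatter of arrays within groups, pooled over all 4 groups.

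Wnt proteins are secreted, lipid-modified signals that bind Frizzled receptors. With the co-receptors Lrp5 or Lrp6 they stop the destruction of beta-catenin, which then enters the nucleus and joins the DNA-binding proteins Lef1 and Tcf7 at target genes such as Axin2, Sp5 and Nkd1. Other Wnt proteins, Wnt5a and Wnt11 among them, are best known for beta-catenin-independent signalling. In the early embryo Wnt3 is needed to form the primitive streak, where mesoderm arises. Cbx7 is a chromodomain subunit of Polycomb repressive complex 1, which binds chromatin marked by Polycomb and holds developmental genes at low expression.

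Signal is given as a log2 level from which the array's own 75th percentile was subtracted, so that 0 marks that percentile. The level belongs to the probe and is compared between groups, not between genes. The values of a group follow the replicate number. The share of features well above background was 75.4% on EB9 control 2 and 62.5% to 69% on the other arrays. Every group was always hybridised at its own array position, so that position and group cannot be told apart. ES controls were present on slides 1 to 3 only. The ES label matched its markers: all 8 pluripotency markers were well above background in every ES array and all 8 were lower in EB9. The targeted gene, Cbx7, has 2 probes. On A_55_P1980401 it read −6.30, −3.14 and −3.04 in control and −7.85, −4.44, −4.61 and −7.37 in knockdown ES cells, with overlapping ranges and 2 of the 4 knockdown arrays not well above background, and the difference did not pass (−1.91, SE 1.23, adjusted p = 0.256). On the 3 slides that held both groups the knockdown read lower, and once a slide term was fitted the difference passed (−1.41, SE 0.17, adjusted p = 0.0001). In EB9 the probe was well above background only on slides 2 and 3, at −5.42 and −5.40 in control and −5.78 and −5.92 in knockdown cells, and passed neither without the slide term (−0.27, adjusted p = 0.92) nor with it (adjusted p = 0.221). A_55_P1980408 passed at neither stage (−0.13 and −0.16), so a lower Cbx7 level was measured in ES cells on 1 probe with the slide term and was not shown in EB9.

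The first comparison asks how the Wnt genes differ between undifferentiated ES cells and EB9. In control cells 33 of the 40 tested members changed, 26 upwards and 7 downwards (limma, Benjamini-Hochberg adjusted p under 0.05), which is 82.5% of the members beside 74.8% of all 21187 genes tested. By direction that is 65% of the members higher and 17.5% lower, against 33.2% and 41.5% of all genes. The members stood further from the background in size and direction: 22 of 40 (55%) were at least 2-fold higher in EB9, against 18.1% of all genes, and their median difference was 1.44 against −0.14. In Cbx7 knockdown cells 32 members changed (80% beside 77.9% of all genes), 24 upwards and 8 downwards (60% and 20%, against 33.7% and 44.2%), with a median of 1 against −0.18. Among the 32 members well above background on at least 3 arrays of both control groups, 20 rose and 6 fell, and 16 (50%) were at least 2-fold higher, against 15.6% of the 17934 genes measured that way. Of the 9 secreted modulators 8 were higher and 1 lower in control cells, beside 33.2% and 41.5% of all genes. Dkk2 and Frzb were above background on no ES array, so they passed the filter through EB9 alone. Rspo3 scored above background on 1 control ES array of 3. EB9 also carried more signal for markers of several other cell types, though not of all. The summed level of 8 fibroblast markers was 2.97 to 3.69 times the 75th percentile in ES arrays and 91.8 to 154 times in EB9 arrays. For 6 cardiac muscle markers it was 2.15 to 2.58 and 3.54 to 6.94 times. For 6 neuroectoderm markers it was not higher, at 2.62 to 3.32 times in ES and 2.57 to 3.12 times in EB9 arrays. Taken singly, 2 of those 6 were higher and 3 lower in control EB9, and 2 higher and 4 lower in knockdown EB9. For 5 blood markers the sum was 0.68 to 1.04 and 124 to 279 times. For 7 visceral endoderm markers it was 1.07 to 1.54 and 5.78 to 13.9 times, and for 7 parietal endoderm markers 42.8 to 66.0 and 145 to 177 times. In such bulk samples fewer cells of a type and less RNA per cell cannot be told apart, and the part of the cell mixture in these differences was not tested.

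**Figure D1:**
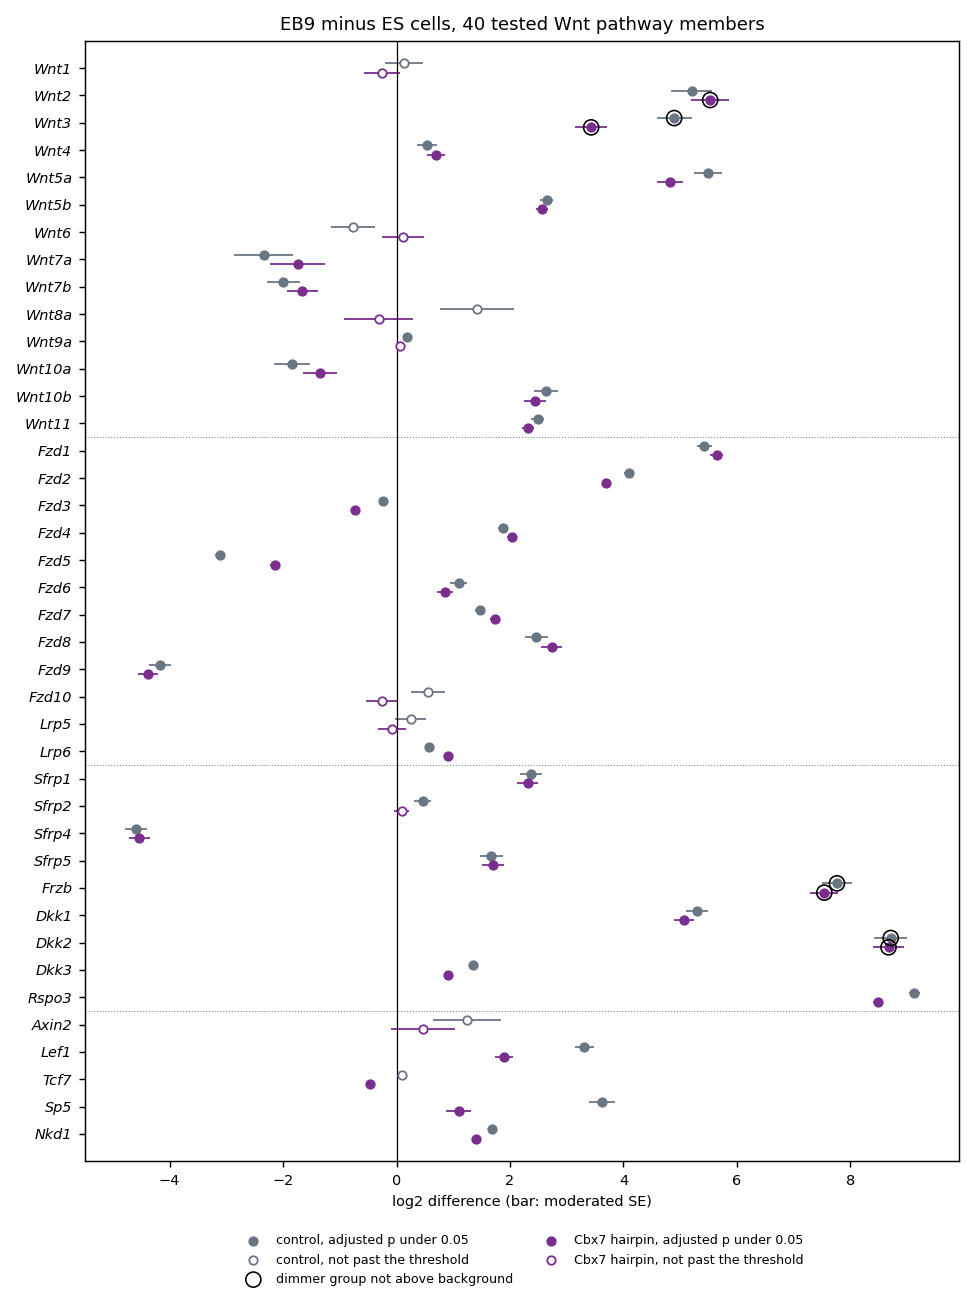
Log2 difference between EB9 and ES cells (horizontal axis) for the 40 tested members, by role from ligands at the top to nuclear factors and targets at the bottom, in control cells (grey) and Cbx7 knockdown cells (purple); bars are the moderated SE, filled points passed the threshold, and a black ring marks a difference whose dimmer group was not well above background. Most points lie to the right of 0, with Rspo3 farthest at 9.12 in control cells, and Sp5 and Lef1 lie further right in control than in knockdown cells.

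Among the ligands 8 of 14 tested rose and 3 fell from ES cells to EB9 in control cells, and 7 rose and 3 fell in knockdown cells. Wnt5a, a ligand best known for beta-catenin-independent signalling (probe on mm9 chromosome 14, 29336664 to 29336723), read −5.72, −5.15 and −5.07 in control ES cells and −0.03, 0.27, 0.21 and 0.25 in control EB9. In knockdown cells it read −5.34, −4.81, −4.51 and −5.65, then −0.56, 0.09, −0.32 and −0.26 after differentiation. Stage groups were far apart on every array, and the rise was 44.9-fold in control cells (log2 difference 5.49, SE 0.25, adjusted p = 1.79e-10) and 28.2-fold in knockdown cells (4.82, SE 0.23, adjusted p = 2.62e-10). Wnt2, a ligand of heart and lung mesoderm in the embryo, read −2, −2.09, −1.81 and −1.95 in control EB9 and −2.31, −2.48, −2.10 and −2.34 in knockdown EB9. In ES cells it ranged from −8.51 to −6.34, and only 1 array there, a control, scored well above background. It rose in control cells (fitted 5.21, adjusted p = 1.46e-08; 2.74 in the authors' deposited table), a size that rests on ES readings near background, and at least 26.3-fold in knockdown cells (adjusted p = 2.97e-09; 2.54 in the deposited table). Here and below "at least" marks a comparison whose dimmer group was well above background on no array. The fold is then taken, array by array, against the gene's own reading or a floor, whichever is higher. The floor is the dimmest signal that any probe of that array had while still scored above background. It averaged −8.41 in control and −7.24 in knockdown ES cells. Bounds of the 2 backgrounds are therefore not comparable, and some probes were scored not above background at levels higher than this floor.

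Wnt3, the ligand needed for the primitive streak (chromosome 11, 103679038 to 103679097), was not well above background on any ES array, with readings from −8.71 to −7.30. In control EB9 it read −3.26, −2.80, −3.04 and −2.94, at least 27.5-fold above control ES cells (adjusted p = 5.02e-09; 1.97 on the log2 scale in the authors' deposited table). In knockdown EB9 it read −4.50, −3.46, −4.29 and −4.46, at least 7.7-fold above knockdown ES cells (adjusted p = 8.25e-08; 1.13 in the deposited table). No knockdown EB9 array reached the lowest control EB9 array. Wnt5b read −0.51, −0.56 and −0.52 in control ES cells, −0.74, −0.83, −0.69 and −0.77 in knockdown ES cells, 2.09, 2.05, 2.09 and 2.23 in control EB9 and 2.18, 1.63, 1.61 and 1.78 in knockdown EB9. That is a 6.26-fold rise in control cells (2.65, SE 0.11, adjusted p = 8.88e-11) and a 5.89-fold rise in knockdown cells. Wnt10b rose in both backgrounds, but it scored above background on 1 control ES array of 3 and 1 knockdown ES array of 4, and its fitted differences of 2.63 and 2.45 were 1.1 and 1.07 in the authors' deposited table. Wnt11 rose 5.6-fold and 4.99-fold, and Wnt4 rose 1.45-fold and 1.62-fold. Wnt9a rose 1.14-fold in control cells, which missed the threshold when ES control 3 or 4, or EB9 control 1 or 2, was left out (differences 0.18, 0.20, 0.18 and 0.14).

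The ligands that fell were Wnt7a, Wnt7b and Wnt10a, members of the Wnt subfamilies used in neural tube and skin. Wnt7b was 3.98-fold lower in control EB9 than in control ES cells (log2 difference −1.99, adjusted p = 3.15e-05) and Wnt10a 3.57-fold lower (−1.84, adjusted p = 0.000146), with −1.03 and −1.04 in the authors' deposited table. In knockdown cells they were 3.15-fold and 2.54-fold lower, and both passed. Wnt7a passed in both backgrounds (−2.34, adjusted p = 0.00105, and −1.74), but EB9 arrays scored it above background on only 1 of 4 in control and 2 of 4 in knockdown cells, and the deposited table gave −0.69 and −0.50. Wnt1, Wnt6 and Wnt8a did not pass in either background (log2 differences of 0.13, −0.76 and 1.42 in control cells and −0.25, 0.11 and −0.32 in knockdown cells). The Wnt8a rise in control cells passed under several alternatives, among them the slide term (1.64, adjusted p = 0.0121) and the authors' deposited table (0.59, adjusted p = 0.0375). Wnt6 in control cells passed under 3, which were array weights, without EB9 control 2 and without EB9 knockdown 2 (−0.99 to −0.76). Wnt8a lay just inside the filter, well above background on 3 of 4 control EB9 arrays, 2 of 3 control ES arrays and no knockdown array. The 2 ligands left out were Wnt2b, above background on none of the 15 arrays, and Wnt3a, above background on 2, both of control ES cells.

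Of the 12 receptors 7 rose and 3 fell in control cells, with the same counts in knockdown cells. Fzd1 (chromosome 5, 4754003 to 4754062) read −4.26, −4.17 and −4.08 in control ES cells and 1.31, 1.17, 1.28 and 1.27 in control EB9. In knockdown cells it read −3.88, −3.63, −3.81 and −3.89, then 2.08, 1.44, 1.95 and 1.92. The rise was 43.1-fold in control cells (5.43, SE 0.12, adjusted p = 2.29e-13) and 50.1-fold in knockdown cells. Fzd2, a receptor found on mesenchymal cells, read −1.41, −1.45 and −1.47 in control ES cells and 2.70, 2.52, 2.67 and 2.70 in control EB9, a 17.1-fold rise (4.09, SE 0.08, adjusted p = 4.19e-14). With the hairpin Fzd2 went from −1.11, −1.35, −1.35 and −1.13 to 2.57, 2.45, 2.35 and 2.48, a 13.0-fold rise. Fzd8 read −4.62, −4.74 and −4.67 in control ES cells, −4.63, −4.68, −4.65 and −4.67 in knockdown ES cells, −1.88, −2.50, −2.34 and −2.12 in control EB9 and −1.37, −2.42, −2.14 and −1.76 in knockdown EB9. It rose 5.52-fold in control (adjusted p = 8.44e-08) and 6.66-fold in knockdown cells (adjusted p = 1.08e-08).

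Other Frizzled receptors went down. Fzd9 (chromosome 5, 135724815 to 135724874) read −0.22, −0.16 and −0.12 in control ES cells and −4.75, −3.65, −4.49 and −4.45 in control EB9, an 18-fold fall (−4.17, SE 0.19, adjusted p = 1.68e-10). In knockdown cells it read 0.23, 0.13, 0.08 and 0.20, then −4.36, −4.14, −4.28 and −4.10, a 20.8-fold fall. Fzd5 read −1.34, −1.62 and −1.59 in control ES cells and −4.59, −4.45, −4.70 and −4.78 in control EB9, an 8.66-fold fall (−3.11, SE 0.09, adjusted p = 2.14e-12). With the hairpin its levels went from −1.90, −2, −2.11 and −1.96 to −4.02, −4.17, −4.14 and −4.23, a 4.44-fold fall. The other Fzd5 probe, A_66_P128199, was well above background on all 7 ES arrays and on no EB9 array. Fzd3 fell 1.18-fold in control and 1.66-fold in knockdown cells. Among the remaining receptors Fzd4, Fzd6, Fzd7 and Lrp6 rose in both backgrounds, by 3.68, 2.14, 2.77 and 1.49 times in control cells (Fzd6 by 1.1 on the log2 scale, 0.73 in the authors' deposited table), while Fzd10 and Lrp5 passed in neither (log2 differences of 0.56 and 0.25 in control cells). The 2 Fzd7 probes, both well above background on every array, differed in size. The brighter gave 1.47 on the log2 scale in control cells and the other 3.36.

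Secreted modulators held the widest fitted stage differences of the module, those of Rspo3, Dkk2 and Frzb, whose ES levels were at or near background. In the authors' deposited table Rspo3 was still the widest in control cells. There Fzd1 (4.81) exceeded Dkk2 (4.63), and Wnt5a (4.17) and Fzd2 (4.01) exceeded Frzb (3.99). Rspo3, an R-spondin that amplifies Wnt signals (chromosome 10, 29172930 to 29172989), read −6.20, −6.73 and −6.58 in control ES cells and 2.55, 2.64, 2.64 and 2.65 in control EB9. In knockdown cells it read −5.96, −6.07, −6.06 and −5.95, then 2.47, 2.46, 2.44 and 2.54. The log2 difference was 9.12 (SE 0.10, adjusted p = 9.65e-16) in control and 8.49 (SE 0.09, adjusted p = 7.33e-16) in knockdown cells, but in ES cells Rspo3 scored well above background on 1 control array of 3 and 3 knockdown arrays of 4, so the ES end of the difference is uncertain (6.92 and 6.70 in the authors' deposited table). Dkk1 and Dkk2 encode secreted proteins that bind Lrp5 and Lrp6, whereas Dkk3 is a divergent family member. Dkk2 was above background on no ES array, at −9.10 to −8.57, and read 0.21, −0.74, −0.33 and −0.28 in control EB9 and 0.58, −0.89, 0.03 and 0.02 in knockdown EB9. It was at least 279-fold higher in EB9 in control cells (adjusted p = 6.83e-12) and at least 145-fold higher in knockdown cells (adjusted p = 2.88e-12), while the authors' deposited table gave log2 differences of 4.63 and 4.92. Dkk1 read −4.77, −5.05 and −4.63 in control ES cells, −5.17, −5.11, −5.01 and −5.10 in knockdown ES cells, 0.19, 0.84, 0.40 and 0.46 in control EB9 and −0.33, 0.56, −0.21 and −0.14 in knockdown EB9. It rose 39.2-fold in control (adjusted p = 2.22e-11) and 33.5-fold in knockdown cells.

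Frzb, a decoy that binds Wnt proteins outside the cell, was likewise above background on no ES array (−9.20 to −7.63). It read −0.97, −0.82, −1.12 and −1 in control EB9 and −0.55, −0.78, −0.61 and −0.56 in knockdown EB9, at least 173-fold and at least 87.5-fold above the ES cells of the same background (adjusted p = 1.02e-11 and 5.46e-12; log2 differences of 3.99 and 4.17 in the authors' deposited table). The other secreted Frizzled-related proteins split: Sfrp1 rose 5.18-fold and Sfrp5 3.19-fold in control cells, whereas Sfrp4 fell 24.1-fold (−4.59, SE 0.20, adjusted p = 1.21e-10) and did so by 23.2-fold in knockdown cells (−3.07 and −2.88 in the authors' deposited table). Sfrp2 rose 1.38-fold in control cells (adjusted p = 0.0119) and did not pass in knockdown cells (0.09, adjusted p = 0.563). Dkk3 rose 2.54-fold and 1.87-fold.

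Of the 5 nuclear factors and targets, 3 rose in both backgrounds. Sp5, a zinc-finger factor induced by beta-catenin (chromosome 2, 70315688 to 70315747), rose 12.3-fold from control ES cells to control EB9 (3.63, SE 0.23, adjusted p = 7.14e-09) and 2.14-fold in knockdown cells (1.1, SE 0.22, adjusted p = 0.000399). Lef1, the DNA-binding partner of beta-catenin (chromosome 3, 130926200 to 130926259), rose 9.94-fold (3.31, SE 0.17, adjusted p = 8.16e-10) and 3.73-fold (1.90, SE 0.16, adjusted p = 1.11e-07). Nkd1, a feedback inhibitor that binds Dishevelled, rose 3.2-fold and 2.63-fold on its brighter probe (1.68 and 1.39 on the log2 scale). The other Nkd1 probe, well above background on every array, gave smaller rises of 0.64 and 0.72. Tcf7 did not pass in control cells (0.09, adjusted p = 0.348) and fell 1.38-fold in knockdown cells (adjusted p = 0.000122). Axin2 passed in neither background (1.24, adjusted p = 0.0787, and 0.47, adjusted p = 0.458), but did in both with a slide term (1.34, adjusted p = 1.39e-05, and 0.47, adjusted p = 0.00915). Their readings on each array are given with the knockdown comparisons.

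The next comparison asks which Wnt genes differ when ES cells carry the Cbx7 hairpin. Of the 40 members 16 changed, 11 upwards and 5 downwards, which is 40% beside 38.4% of all genes, so the share of members is near that of the array as a whole; by direction it is 27.5% and 12.5%, against 22% and 16.5%. At least 2-fold changes were found in 2 members (5% beside 4.9% of all genes), Sp5 upwards and Wnt6 downwards. In 24 of 40 members (60% beside 49.6% of all genes) the knockdown ES arrays all lay on one side of the control ES arrays. The median difference of the members was 0.13, against 0.04 for all genes.

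**Figure D2:**
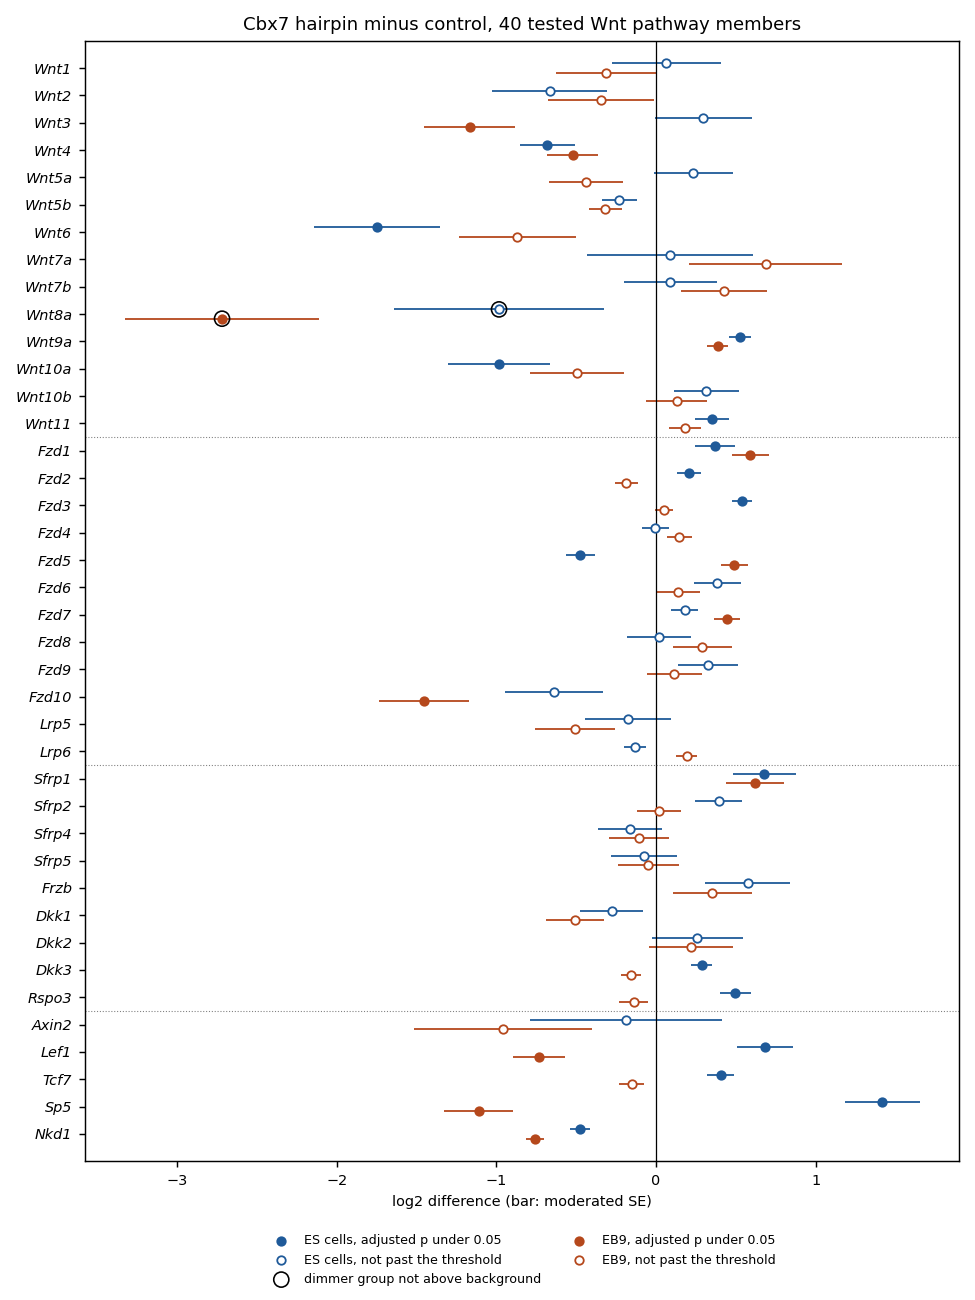
Log2 difference between Cbx7 hairpin and control cells (horizontal axis) for the 40 tested members, in ES cells (blue) and in EB9 (red), by role from ligands at the top to nuclear factors and targets at the bottom; bars are the moderated SE, filled points passed the threshold, and the black rings on Wnt8a mark that no knockdown array was well above background. Sp5 lies at 1.42 in ES cells and at −1.11 in EB9, Lef1 at 0.68 and −0.73, and Nkd1 below 0 at both stages.

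Sp5 read −4.33, −4.15 and −4.27 in control ES cells and −2.77, −2.90, −2.96 and −2.71 in knockdown ES cells. Every knockdown array was above every control array, and Sp5 was 2.67-fold higher (1.42, SE 0.23, adjusted p = 0.000402). Lef1 read −1.77, −1.89 and −1.87 in control and −1.10, −1.17, −1.30 and −1.07 in knockdown ES cells, again without overlap (0.68, SE 0.17, adjusted p = 0.0075). The other kept Lef1 probe, A_51_P420400, gave 0.27 (SE 0.15, adjusted p = 0.192), so that rise rests on the brighter probe. Tcf7, a second DNA-binding partner of beta-catenin, rose by 0.40 (SE 0.09, adjusted p = 0.00245). Nkd1 went the other way: it read −0.52, −0.58 and −0.55 in control and −1.04, −0.96, −1.07 and −1.04 in knockdown ES cells (−0.48, SE 0.06, adjusted p = 6.24e-05), and its other probe gave −0.67 (adjusted p = 0.00672). Axin2, the feedback scaffold of beta-catenin destruction, read −4.05, −2.79 and −2.72 in control and −4.35, −2.61, −2.95 and −3.58 in knockdown ES cells, with overlapping ranges (−0.19, SE 0.60, adjusted p = 0.853).

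Among ligands in ES cells 2 rose and 3 fell of 14. Wnt6 (chromosome 1, 74831461 to 74831520) read −1.34, −1.32 and −1.35 in control ES cells and −3.13, −3.04, −3.11 and −3.07 in knockdown ES cells, a fall by 1.75 on the log2 scale (SE 0.39, 3.35-fold, adjusted p = 0.00352). The 2 groups were tight and far apart, and the difference within slides 1, 2 and 3 was −1.78, −1.71 and −1.76. The SE is pooled with EB9, where the Wnt6 SD was 0.51 in control and 0.92 in knockdown cells. Wnt10a, a neighbour of Wnt6 on the same chromosome (74850633 to 74850692), fell by 0.99 (SE 0.32, adjusted p = 0.0269). Its call was lost without any 1 of the 3 control ES arrays or without knockdown ES array 2 or 3 (−1.02 to −0.95). Wnt4 fell by 0.68 (adjusted p = 0.00669), or −0.38 (adjusted p = 0.0536) in the authors' deposited table. Wnt9a rose by 0.53 (SE 0.07, adjusted p = 8.53e-05) and Wnt11 by 0.35 (SE 0.11, adjusted p = 0.0207), the latter short of the threshold without ES control 2 (0.31) or ES knockdown 2 (0.32).

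Among receptors in ES cells 3 rose and 1 fell of 12. Fzd3 rose by 0.54 (SE 0.06, adjusted p = 2.64e-05), and its arrays did not overlap. Fzd1 rose by 0.37 (adjusted p = 0.0323), a call lost without ES control 2 (0.33), ES control 3 (0.37), ES knockdown 2 (0.31) or ES knockdown 3 (0.37), and also in the authors' deposited table (0.18, adjusted p = 0.236). Fzd2 reached the threshold (0.21, adjusted p = 0.05), but its other probe, A_52_P129428, was above background on 1 of the 7 ES arrays only, and the mean over both probes was −0.033; its call was lost without ES control 2, 3 or 4 (0.22, 0.20 and 0.19), among other arrays. Fzd5 fell by 0.47 (SE 0.09, adjusted p = 0.00114). Secreted modulators gave 3 rises and no fall among 9: Sfrp1 by 0.68 (adjusted p = 0.0155), Rspo3 by 0.50 (adjusted p = 0.0013) and Dkk3 by 0.29 (adjusted p = 0.00442). Rspo3 was close to background in ES cells, and in the authors' deposited table its difference was 0.07 (adjusted p = 0.475). Sfrp1 missed the threshold without ES control 3 (0.66, adjusted p = 0.0506).

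The same contrast in EB9 asks which Wnt genes differ once the cells have differentiated with the hairpin. Of 40 members 12 changed, 5 upwards and 7 downwards, which is 30% beside 15.2% of all genes (12.5% and 17.5% by direction, against 7.96% and 7.2%). Falls of at least 2-fold were found in 4 members, 10% beside 0.68% of all genes, and they were Wnt8a, Fzd10, Wnt3 and Sp5. Wnt8a had passed the filter through the control EB9 arrays alone, and among the 38 members well above background on at least 3 arrays of both EB9 groups 3 remained (7.89% beside 0.418% of 18884 genes). The 2 groups did not overlap in 11 members (27.5% beside 15.7% of all genes). The median of the members was −0.12 against −0.01 of all genes, and their median size regardless of sign was 0.37 against 0.15.

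Sp5 read −0.81, 0.06, −0.98 and −0.77 in control EB9 and −2.06, −1.18, −1.93 and −1.77 in knockdown EB9. Every knockdown array was below every control array, and the fall was 2.16-fold (−1.11, SE 0.22, adjusted p = 0.00542). Lef1 read 1.19, 1.68, 1.5 and 1.5 in control and 0.43, 1.32, 0.62 and 0.59 in knockdown EB9. Knockdown array 2 lay within the control range, yet on each slide the knockdown was lower, with differences of −0.76, −0.37, −0.88 and −0.92. The fitted fall was −0.73 (SE 0.16, adjusted p = 0.01), and the other Lef1 probe gave −0.83 (adjusted p = 0.00238). Nkd1 read 1.05, 1.12, 1.14 and 1.21 in control and 0.50, 0.41, 0.27 and 0.29 in knockdown EB9, well apart (−0.76, SE 0.06, 1.69-fold, adjusted p = 3.76e-05), with −0.59 (adjusted p = 0.0241) on its other probe. Tcf7 did not pass (−0.15, adjusted p = 0.233).

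**Figure D3:**
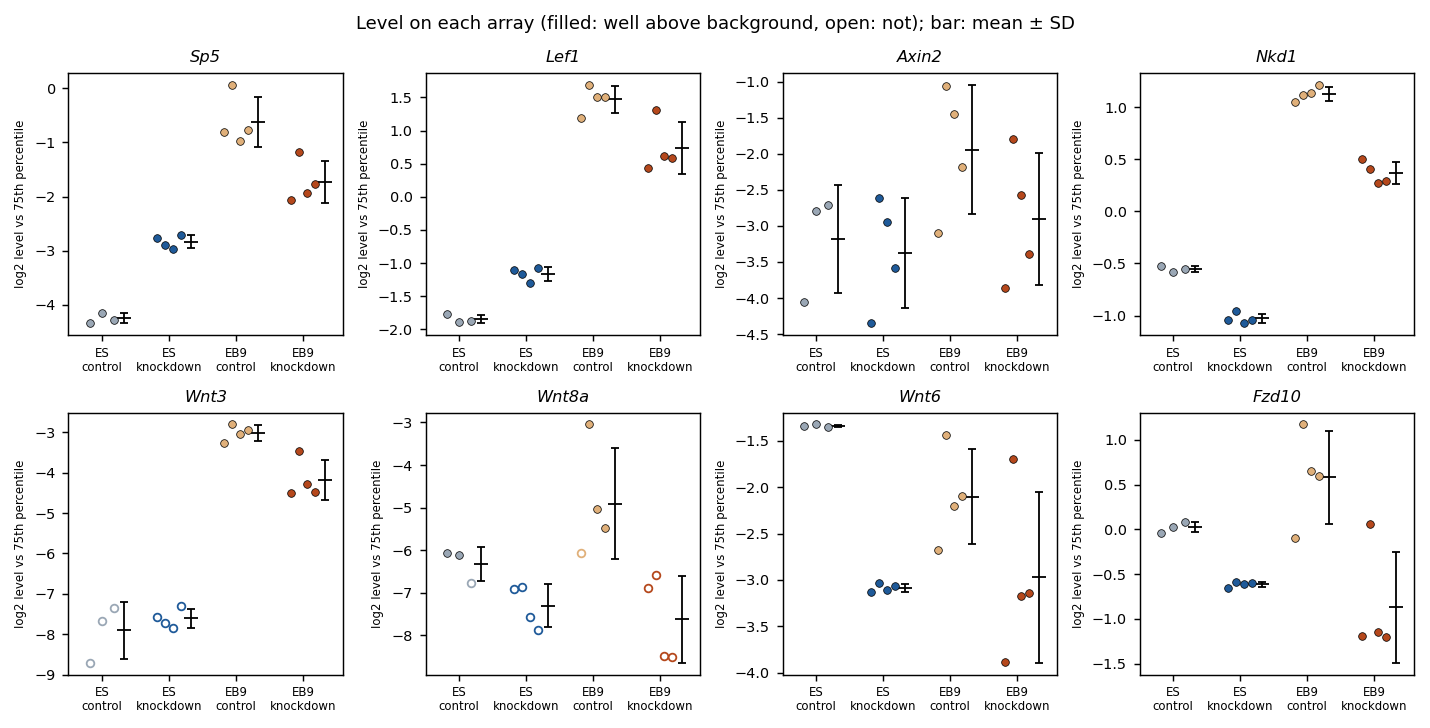
Log2 level on each array (vertical axis, 0 being that array's 75th percentile) of 8 members in the 4 groups; filled points were well above background, open points were not, and bars give mean ± SD. Sp5 and Lef1 lie above control in knockdown ES cells and mostly below control in knockdown EB9, whereas Nkd1 lies below control at both stages.

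Axin2 differed from slide to slide. It read −3.10, −1.06, −1.45 and −2.18 in control EB9 and −3.87, −1.79, −2.58 and −3.39 in knockdown EB9, and the ranges overlapped (−0.96, SE 0.56, adjusted p = 0.291). In all 4 groups, its readings on slide 1, and on slide 4 where there was one, lay below those on slides 2 and 3. Within slides 1 to 4 the knockdown was lower, with differences of −0.77, −0.73, −1.13 and −1.21, and with a term for the slide the same difference had SE 0.14 and adjusted p = 0.00171. A fainter Axin2 probe, A_66_P134405, was well above background on 3 of the 4 control EB9 arrays and on no other array. With the slide term 17 members passed in EB9, 6 upwards and 11 downwards, as did 5661 of the 21187 genes. Beside Axin2 the members added were Lrp5, Wnt5b, Fzd2 and Lrp6. Lrp5 was lower on slides 1 to 4, with differences of −0.81, −0.38, −0.59 and −0.24 (fitted −0.51, SE 0.11, adjusted p = 0.00855 with the slide term and 0.21 without). The others were Wnt5b at −0.32 (adjusted p = 0.0378), Fzd2 at −0.19 (adjusted p = 0.0246) and Lrp6 at 0.19 (adjusted p = 0.0262).

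**Figure D4:**
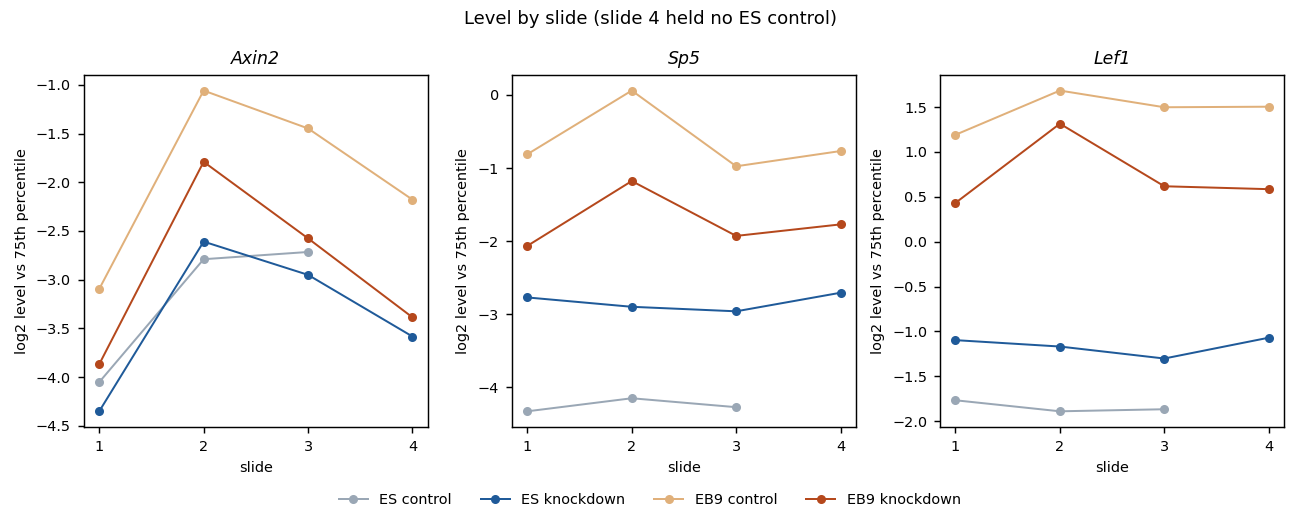
Log2 level of Axin2, Sp5 and Lef1 (vertical axis) by slide (horizontal axis), with 1 line for each group. Axin2 is low on slide 1 in every group, and its knockdown EB9 line runs below its control EB9 line on all 4 slides, by 0.73 to 1.21 on the log2 scale.

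Of the 14 ligands 3 fell and 1 rose in knockdown EB9. Wnt3 fell from the readings given above, which did not overlap, by 1.17 (SE 0.28, 2.25-fold, adjusted p = 0.016); without EB9 knockdown 4 the difference was −1.07 (adjusted p = 0.0544). Wnt8a, a ligand of the primitive streak, read −6.06, −3.05, −5.05 and −5.47 in control EB9 and −6.90, −6.59, −8.50 and −8.51 in knockdown EB9. It scored well above background on 3 control arrays of 4 and on none of the 4 knockdown arrays, which makes it at least 6.33-fold lower (adjusted p = 0.0109). EB9 control 2 was the highest reading, and without it the fitted difference was −2.10 (adjusted p = 0.0158) instead of −2.72; in the authors' deposited table it was −0.70 (adjusted p = 0.0548). Wnt4 fell by 0.52 (adjusted p = 0.0423), a call that ended when any 1 of 13 arrays was left out, among them EB9 control 2 (−0.40) and EB9 knockdown 1 (−0.40). Wnt9a rose by 0.39 (SE 0.07, adjusted p = 0.00241). Wnt6, which was lower in knockdown ES cells, read −2.68, −1.44, −2.20 and −2.10 in control and −3.88, −1.69, −3.17 and −3.14 in knockdown EB9 (−0.87, SE 0.37, adjusted p = 0.134), and without EB9 knockdown 2 the difference was −1.30 (adjusted p = 0.00334).

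Of the 12 receptors 3 rose and 1 fell. Fzd10 (chromosome 5, 129109798 to 129109857), a Frizzled expressed in the streak and neural tube, read −0.04, 0.03 and 0.08 in control ES cells, −0.65, −0.59, −0.61 and −0.60 in knockdown ES cells, −0.10, 1.17, 0.65 and 0.60 in control EB9 and −1.19, 0.06, −1.15 and −1.20 in knockdown EB9. The EB9 groups overlapped through knockdown array 2 and control array 1, but on slides 1 to 4 the knockdown was lower, with differences of −1.09, −1.11, −1.80 and −1.80 (fitted −1.45, SE 0.28, 2.73-fold, adjusted p = 0.00531). In ES cells its difference of −0.64 did not pass (adjusted p = 0.121), although the arrays did not overlap. Its SD was 0.06 in control and 0.03 in knockdown ES cells, but 0.52 and 0.62 in EB9. The test pools these, so that miss does not reflect the scatter in ES cells alone. Fzd1 rose by 0.59 (SE 0.11, adjusted p = 0.00549), and its arrays were apart. Fzd5 and Fzd7 rose by 0.49 (adjusted p = 0.00246) and 0.44 (adjusted p = 0.00329) on their brighter probes. The other Fzd7 probe gave −0.18 (adjusted p = 0.787), the other Fzd5 probe was at background in EB9, and with the mean of the probes neither gene passed. In the authors' deposited table Fzd5 gave 0.29 (adjusted p = 0.0561).

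Among the secreted modulators Sfrp1 alone passed in EB9, upwards by 0.62 (SE 0.18, adjusted p = 0.0379). That call ended when any 1 of 11 arrays was left out, for example EB9 knockdown 1 (0.46, adjusted p = 0.0894) or EB9 control 2 (0.53, adjusted p = 0.0901). Dkk1 differed by −0.51 (SE 0.18, adjusted p = 0.0809); without EB9 knockdown 2 the value was −0.70 (adjusted p = 0.00398). Rspo3 and Dkk2 differed by −0.14 (adjusted p = 0.34) and 0.22 (adjusted p = 0.664). Frzb did not pass either, but its EB9 arrays did not overlap, with −0.82 the highest control and −0.78 the lowest knockdown reading. Its SD was 0.12 in control and 0.11 in knockdown EB9. The test pools these with 0.42 and 0.60 in ES cells, where Frzb was at background. In the authors' deposited table the Frzb difference passed (0.33, adjusted p = 0.003).

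The knockdown effects in EB9 and in ES cells were then compared directly, as the difference of the 2 differences. Of 40 members 11 passed, 9 with a lower and 2 with a higher effect in EB9, which is 27.5% beside 29.7% of all genes, with 22.5% beside 17% for a lower and 5% beside 12.7% for a higher effect. Sp5 had the widest gap, from 1.42 in ES cells to −1.11 in EB9 (−2.53, SE 0.32, adjusted p = 9.55e-05). Lef1 went from 0.68 to −0.73 (−1.41, SE 0.24, adjusted p = 0.000725), and its other probe gave −1.1 (adjusted p = 0.00158). Wnt3 gave −1.46 (SE 0.42, adjusted p = 0.018; −0.84 in the authors' deposited table), although its ES levels were all at background. Tcf7 changed from 0.40 to −0.15 (−0.56, SE 0.12, adjusted p = 0.00328), and its EB9 value did not pass by itself. Sp5, Lef1 and Tcf7 all rose in knockdown ES cells. That rise is subtracted in this difference, so their lower effect in EB9 is not independent of it.

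Smaller differences between the stages were found for Rspo3 (−0.64, adjusted p = 0.00285; −0.22, adjusted p = 0.0972 in the authors' deposited table), Fzd3 (−0.49, adjusted p = 0.000943), Dkk3 (−0.44, adjusted p = 0.00282), Fzd2 (−0.39, adjusted p = 0.0128) and Nkd1 (−0.29, adjusted p = 0.0217). Nkd1 fell at both stages and its other probe gave 0.08 (adjusted p = 0.851) for this difference; without ES control 3 the call was lost (−0.27, adjusted p = 0.0574). Fzd5 (0.96, adjusted p = 0.000106) and Lrp6 (0.32, adjusted p = 0.0232) had higher effects in EB9. The second probes of Fzd5 and Fzd2 were too dim at 1 of the stages to test this. Lrp6 missed the threshold without ES control 2 (0.30, adjusted p = 0.0577) and with the mean of its probes. Its other probe, well above background on every array, gave 0.16 (adjusted p = 0.634). Wnt6 (0.88, adjusted p = 0.257), Fzd10 (−0.81, adjusted p = 0.17) and Axin2 (−0.77, adjusted p = 0.551) did not pass, so their effects are not shown to differ between stages; with the slide term Axin2 did (−0.88, adjusted p = 0.00735).

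Promoter sequence was set beside these values for the members that RefSeq's table of promoter windows (build GRCm38.p6, from 250 bases before to 50 after an annotated start) holds, 28 of the 42. The core motif of Lef1 and Tcf7, CTTTGAT on either strand, occurred in 3 of the 28 members, Sp5, Wnt11 and Wnt5b, against 4.29% of all 27025 genes of the table and 3.74% of its 17492 protein-coding genes. The stretches below are the 250 bases before the start of Sp5, which moved in opposite directions at the 2 stages, and of Wnt3, Axin2 and Nkd1, which read lower in knockdown EB9; capitals mark the motif.
Sp5 (chr2:70474673-70474922, plus strand): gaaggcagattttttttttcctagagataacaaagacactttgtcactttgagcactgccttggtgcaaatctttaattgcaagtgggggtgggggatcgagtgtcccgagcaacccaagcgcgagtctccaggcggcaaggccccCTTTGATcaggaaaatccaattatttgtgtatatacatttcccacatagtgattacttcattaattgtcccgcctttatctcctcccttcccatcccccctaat
Wnt3 (chr11:103773925-103774174, plus strand): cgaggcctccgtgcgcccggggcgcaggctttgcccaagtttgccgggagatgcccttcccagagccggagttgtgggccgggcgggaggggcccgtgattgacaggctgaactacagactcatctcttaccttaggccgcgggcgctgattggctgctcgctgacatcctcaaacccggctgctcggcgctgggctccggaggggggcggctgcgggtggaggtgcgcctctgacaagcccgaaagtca
Axin2 (chr11:108920099-108920348, plus strand): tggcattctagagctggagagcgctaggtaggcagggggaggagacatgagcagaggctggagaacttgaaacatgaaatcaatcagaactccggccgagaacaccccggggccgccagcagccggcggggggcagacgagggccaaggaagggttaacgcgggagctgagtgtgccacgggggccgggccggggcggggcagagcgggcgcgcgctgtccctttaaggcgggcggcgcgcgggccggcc
Nkd1 (chr8:88527383-88527632, plus strand): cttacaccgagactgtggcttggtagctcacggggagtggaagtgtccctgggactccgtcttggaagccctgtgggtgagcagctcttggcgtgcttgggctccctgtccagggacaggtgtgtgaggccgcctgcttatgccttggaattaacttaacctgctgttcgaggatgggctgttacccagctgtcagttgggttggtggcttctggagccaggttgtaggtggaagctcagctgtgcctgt

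The Sp5 stretch holds the motif once, its first base 104 bases before the start, and the other 3 stretches hold no match; a match is a run of letters, not evidence of binding. CpG content set the members apart from the table as a description: 21 of the 28 (75%) had a ratio of observed to expected CpG above 0.6 as the median of their windows, against 47.3% of the protein-coding genes and 35.6% of all genes. Within the 250 bases shown, Axin2 and Wnt3 hold 24 and 22 CpG, and Sp5 and Nkd1 hold 6 each. Promoters rich in CpG are, as background, those at which Polycomb complexes are usually found. Binding was not measured in these arrays.

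Other genes of the pathway, from a list of 89 of which 86 were tested, moved much as the array did in ES cells, with 18 higher and 15 lower (38.4%, the same share as all genes). Csnk1a1, a kinase of the beta-catenin destruction complex, rose by 0.50, the ubiquitin ligase Rnf43, which removes Frizzled from the cell surface, by 0.78 and the Dishevelled protein Dvl2 by 0.44. Tnfrsf19, a receptor gene induced by Wnt, changed by −0.80, the planar polarity gene Vangl1 by −0.98 and the co-repressor Tle4 by −0.73. In knockdown EB9 3 rose and 13 fell (18.6% beside 15.2%). Rspo2 rose by 0.84, Dact1 by 0.55 and Tdgf1 by 0.45, while Tnfrsf19 and Vangl1 each fell by 0.60. Cer1, a secreted antagonist of Wnt and Nodal, scored well above background on all 4 control EB9 arrays and on no knockdown EB9 array (adjusted p = 0.000199).

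From ES cells to EB9 the same list gave 51 higher and 23 lower in control (86% beside 74.8% of all genes) and 44 higher and 26 lower in knockdown cells (81.4% beside 77.9%). Wls, the carrier that brings Wnt proteins to the cell surface, rose by 4.75 on the log2 scale in control and by 4.12 in knockdown cells. Genes were named per comparison by the smallest adjusted p, so a gene given for a single background may have changed in the other too. Msx1 rose by 5.42 in control cells, Prickle1 by 4.30 in knockdown cells, and Myc by 2.96 and 3.37. Tdgf1, the Nodal co-receptor of pluripotent cells, changed by −5.23 and −4.6, and Dkkl1 by −3.23 in control cells. Rspo4 left the measured range, above background on every ES array and on no EB9 array, and Cdx1 fell by 6.63 in knockdown cells. The knockdown effect differed between EB9 and ES cells for 30 of the 86 (34.9% beside 29.7% of all genes), 12 higher and 18 lower in EB9, with Tle4 (0.88), Cxxc4 (1.34) and Ror2 (0.55) the higher and Msx1 (−1.37), Wls (−0.63) and Csnk1a1 (−0.48) the lower ones with the smallest adjusted p.

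Markers of the primitive streak and early mesoderm moved together with Wnt3, Wnt8a and Sp5 in knockdown EB9. Of 7 tested markers 6 were lower and none higher (85.7% beside 15.2% of all genes called and 7.2% lower), with a median of −1.11, and Mixl1 was the 1 listed marker left out by the filter. The list was chosen with earlier results of these data known, so these shares are a description only. T and Mesp1 also belong to the list of other pathway genes above, so the 2 lists are not separate. T, the Brachyury factor and a target of Wnt3 in the embryo, fell by 2.79 (SE 0.36, adjusted p = 0.000484). The values were −1.67 for Mesp1 (adjusted p = 0.000588), −1.35 for Fgf8 (adjusted p = 0.0022), −1.11 for Evx1 (adjusted p = 0.00613), −1.08 for Gsc and −0.89 for Eomes. The summed level of the list was 2.42 to 4.23 times the 75th percentile in control EB9, 1.30 to 2.14 in knockdown EB9 and 1.27 to 1.47 in ES arrays, and all 7 were well above background on every EB9 array. Of the other marker lists visceral endoderm had 3 lower of 7 in knockdown EB9, parietal endoderm 2 higher and 1 lower of 7, pluripotency 3 higher of 8, fibroblasts 1 lower of 8, neuroectoderm 1 higher of 6, and cardiac muscle and blood none of 6 and 5. The part of such a difference in cell types in the Wnt values was not tested.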

How the data were processed

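The 42 members, the gene lists and the naming rule were chosen with earlier results of these data known. Members read array by array were those at least 2-fold changed and past the threshold in a comparison, at most 4 per role, and Axin2, Lef1, Sp5 and Nkd1.

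Per the labels, total RNA (500 ng per sample) was Cy3-labelled for 1-colour Agilent arrays. The scanner files' headers name Agilent Feature Extraction 10.7.3.1; the deposited intensity values are the background-corrected processed signals of that software, with no scaling between arrays. A second deposited file gives the authors' own log2 values. Of these, 99.99% differed by less than 1e-05 from normexp background correction (offset 50) of the mean signals followed by quantile normalisation, so these alternatives are 1 and the same.

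The processed intensity was log2-transformed and each array's 75th percentile over 43020 non-control features subtracted. Features marked as outliers (109 to 179 per array) were left out and spots of a probe averaged. Of 39429 probes, 26424 were named by RefSeq accession, 3983 by symbol, 826 by older symbol and 8196 by the name in the file. A gene was represented by its brightest kept probe (27253 kept, 21187 genes). Positions are those of the probes in the files (mm9); whether they lie in exons or UTRs was not analysed here.

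limma 3.58.1 (R 4.3.3 and the package data.table in version 1.17.8) estimated the 4 group means jointly from the 15 arrays, leaving 11 residual degrees of freedom plus 1.61 from the prior. Tests were two-sided, with Benjamini-Hochberg adjustment over all genes and a threshold of 0.05; single probes were adjusted over all kept probes. SE is the moderated SE, SD that of a group's arrays. The procedure was tested on simulated data. Alternatives were the authors' log2 values, quantile normalisation alone, the median of probes above background as base, other filters, the mean of probes, array weights, the slide or the replicate number as a block, and leaving out each array. Counts over members above background in every group compared were added after seeing the data.

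Slide and replicate number coincide for every group but the ES controls, where numbers 2, 3 and 4 sat on slides 1, 2 and 3. Deviations from group means correlated between groups at 0.21 to 0.63 (median 0.43, 21 pairs) on the same slide, at a median of −0.31 (63 pairs) on different slides, and at −0.59 to 0.55 (median 0.34, 21 pairs) for the same replicate number, so the number was not taken as a pairing. Because deviations are centred within each group, positive values on the same slide push those on different slides below 0. The main fit held no slide term, so differences shared by a slide enter its SE.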

Additional observations from a re-analysis of the deposited data

Results flagged for a closer look

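A single array stood apart from the other 3 of its group, by Dixon's test, in 5 of 120 groups of 4 arrays; chance marks about 1 in 20 groups. EB9 control 2 read 2.52 for Fzd2 and −0.37 for Tcf7. EB9 knockdown 2 read 0.47 for Fzd7 and 0.0616 for Fzd10, and EB9 control 1 read 2.55 for Rspo3. The 5 readings come from 3 arrays, and EB9 control 2 also had the highest share of features above background (75.4%).

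The knockdown effect in EB9 minus that in ES cells passed limma's test of the difference itself (Benjamini-Hochberg adjusted p under 0.05, 4 against 4 and 4 against 3 arrays) for 11 members. It was −2.53 for Sp5, −1.46 for Wnt3 and −1.41 for Lef1. It was −0.64 for Rspo3 (−0.22, adjusted p = 0.0972, in the authors' deposited table), −0.56 for Tcf7, −0.49 for Fzd3, −0.44 for Dkk3, −0.39 for Fzd2 and −0.29 for Nkd1. It was 0.96 for Fzd5 and 0.32 for Lrp6. The share of members (27.5%) was near that of all genes (29.7%).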

How the results depend on the processing

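Of the members called in the 4 simple comparisons and in the difference of effects, 9 of 16, 6 of 12, 32 of 33, 32 of 32 and 6 of 11 kept their call under every alternative run. The calls of the group contrasts ran from 12 to 22 members in ES cells, 10 to 18 in EB9, 33 to 36 and 32 to 33 for the stages, and 7 to 16 for the difference of effects. Leaving out 1 array gave 12 to 19, 9 to 15, 32 to 35, 32 to 33 and 10 to 13. With the mean of the kept probes the difference of effects passed for 7 members, none higher and 7 lower, and Fzd2 in knockdown ES cells turned to −0.033; probes of 1 gene then enter together.

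The authors' table, which equals normexp with quantile normalisation, ended 8 of the 104 calls and added 5. Array weights added 20. With the slide as block no call ended and 15 were added. With the replicate number as block 2 calls ended and 4 were added (14 members called in knockdown ES cells, 13 in knockdown EB9, 36 and 32 for the stages and 11 for the difference), but the number is no pairing here. Over all genes the 3211 calls in knockdown EB9 became 5661 with the slide block, 5226 with array weights, 1898 without EB9 knockdown 3, 1804 without EB9 knockdown 4 and 2033 without EB9 control 4; the cause was not tested. Among members above background in every group compared, 15 of 33 passed in ES cells (45.5% beside 40% of all genes measured that way). In EB9 it was 11 of 38 (28.9% beside 15.8%). For the stages it was 26 of 32 in control (81.2% beside 74.3%) and 26 of 33 in knockdown cells (78.8% beside 77.7%). For the difference of effects it was 9 of 32 (28.1% beside 32.1%). Signal close to background limits Wnt8a, Wnt2, Wnt3, Wnt10b, Rspo3, Dkk2 and Frzb in ES cells, Wnt7a in EB9 and Wnt8a in knockdown EB9.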
